A study of Mus musculus with 8 samples.

Results

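The 10 genes *Hmgb1*, *Cpsf4*, *Arpc1b*, *Fam220a*, *D130017N08Rik*, *Rasl11a*, *Alox5ap*, *Gper1*, *Zscan25* and *B3glct* lie on chromosome 5 within 10 Mb of *Flt1*, the gene of VEGFR-1. They are 10 of the 46040 genes of the counts table and were picked by name, because they differed between the genotype groups. Their differences between the groups are therefore a description of the choice and carry no test here.

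The libraries came from the left ventricle (LV) of 8 male C57BL/6 mice, aged 5 to 7 months at the operation, after 14 days of angiotensin II (angII) from a subcutaneous minipump at 0.1 mg/kg/h. AngII raises blood pressure and leads to left ventricular hypertrophy. Of the mice, 4 were littermate controls and 4 were VEGFR-1 TK-/- mice, whose *Flt1* allele lacks the intracellular tyrosine kinase domain while the part of the receptor that binds ligand remains. All mice of both groups received angII, and RNA of mice without it was not analysed here. The sample labels contradict each other: each library has a genotype tag and a library name that give the same genotype, and a sample title that gives the other. The libraries were grouped by the tags, as control-tagged and TK-/--tagged libraries, with each difference set as TK-/--tagged over control-tagged. Every direction below reverses if the titles are right. The library names also refer to cardiomyocytes, where the other labels and the study's methods give LV tissue. Markers of endothelial cells, fibroblasts and leukocytes were all detected beside those of cardiomyocytes. Detection alone does not decide between these labels, since a cardiomyocyte preparation can hold other cells.

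VEGFR-1 is a receptor of endothelial cells and monocytes for VEGF-A, VEGF-B and PlGF. It binds VEGF-A tightly, signals weakly, and is also made as a soluble form that traps its ligands. Genes that sit close together on a chromosome are inherited together and can share enhancers and chromatin domains. In a mutant line, the DNA around a targeted gene can still be that of the stem cells in which it was targeted. The part of either in the differences below was not tested, and the strain of the stem cells is not given in the sources used here.

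The counts on genes summed to 12349639 to 16239670 per library in the control-tagged group and to 11449137 to 13505888 in the TK-/--tagged group. A total of 13542 genes passed the filter of a CPM (the count of a gene scaled to the total on genes) of at least 1 in at least 2 libraries, where a CPM of 1 stands for 11 to 16 reads. All 10 genes passed it. Values below are normalized CPM, the CPM after scaling by the TMM method, and the median log2 fold change of all tested genes was 0.00. At the study's thresholds (an FDR under 0.1 and a fold change of 1.5 or more in either direction), edgeR's quasi-likelihood test called 1 of 13542 genes (0.00738%), *Flt1* itself, at an FDR of 0.00808. Each of the 10 genes had an unadjusted p under 0.01 and none had an FDR under 0.1 in this test. The likelihood ratio test, which the study used, gave an FDR under 0.1 to 5 of them and to 75 of 13542 genes in all (0.554%). DESeq2 gave it to 4 of them and to 56 of 10916 genes with an adjusted p (0.513%), and left *D130017N08Rik* and *Rasl11a* without an adjusted p. The quasi-likelihood test without a filter on low counts gave it to 1 of them and to 24 of 22597 (0.106%).

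*Flt1* had a normalized CPM of 67.4, 68.4, 56.9 and 84.3 in control-tagged replicates 1 to 4 and of 144, 149, 169.6 and 168 in TK-/--tagged replicates 1 to 4. Its log2 fold change was 1.19 (SE 0.12). A count over the whole gene takes in transcripts whether or not they encode the tyrosine kinase domain and does not decide which label is right.

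Over all tested genes, 290 (2.14%) had an unadjusted p under 0.01, 87 of them (0.642%) higher and 203 (1.5%) lower in TK-/--tagged libraries. Of the 10 genes, 5 were higher (*Hmgb1*, *Fam220a*, *D130017N08Rik*, *Zscan25*, *B3glct*) and 5 lower (*Cpsf4*, *Arpc1b*, *Rasl11a*, *Alox5ap*, *Gper1*). The groups of 4 libraries did not overlap for any of the 10, as the choice would bring about, against 4.98% of all tested genes. Their median absolute log2 fold change was 0.54, and that of all tested genes was 0.13. *B3glct* had the highest unadjusted p of the 10 (0.00951). Just outside was *A430033K04Rik*, a protein-coding gene 8.91 Mb away with a log2 fold change of 0.69 (SE 0.23) and an unadjusted p of 0.0130. *Gm15708*, a transcript inside an intron 3.28 Mb from *Flt1*, had an unadjusted p under 0.01 as well, with 7 to 14 reads per control-tagged and 13 to 30 per TK-/--tagged library, but is not one of the 10.

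**Figure D1:**
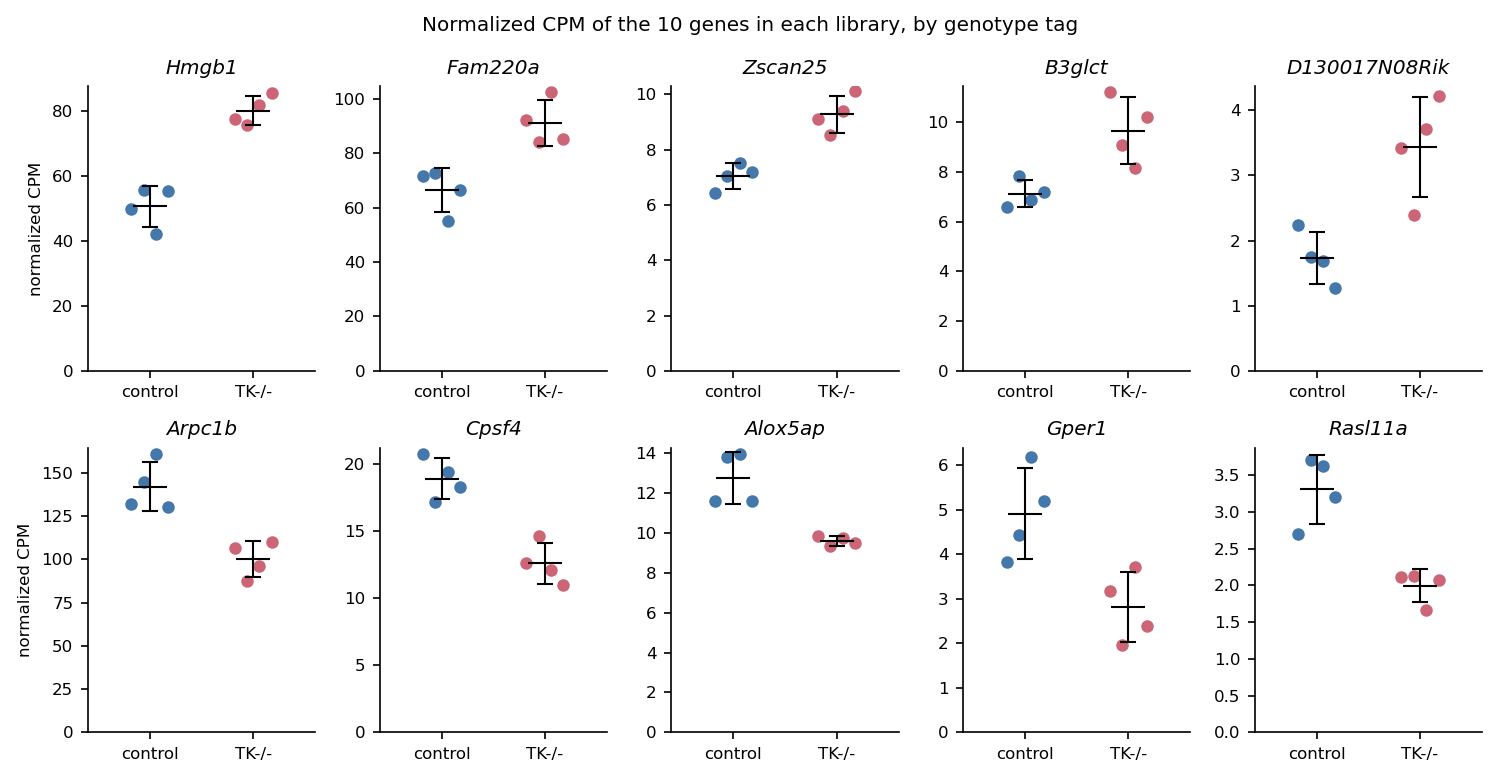
Normalized CPM (y axis, from 0, a scale for each panel) of the 10 genes in each of the 4 control-tagged and 4 TK-/--tagged libraries (points), with mean and SD (bars). The upper row holds the 5 genes that were higher and the lower row the 5 that were lower in the TK-/--tagged libraries, and in no panel do the groups overlap.

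Along the chromosome, *Flt1* lies from 147561604 to 147726011 on the minus strand of GRCm38. Toward the centromere lie 7 of the 10 genes and on the other side 3. Of the 10, 4 lie within 2 Mb of *Flt1* and 9 within 5 Mb. The chromosome ends close by: the last annotated gene ends 3.98 Mb beyond *Flt1*, so that 121 of the 142 tested genes within 10 Mb were on the centromeric side and 21 on the other. The nearest of the 10 was *Rasl11a*, at 0.714 Mb, and the farthest *Gper1*, at 8.13 Mb. Higher and lower genes lay intermingled on both sides. *Cpsf4* and *Arpc1b*, both lower, and *Zscan25*, which was higher, lay between 2.27 and 2.43 Mb from *Flt1*. *Hmgb1* and *B3glct*, both higher, flanked the lower *Alox5ap* on the side of the telomere. The plus strand held 9 of the 10 genes, all but *Hmgb1*, against 76 of the 142 tested genes within 10 Mb (53.5%).

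**Figure D2:**
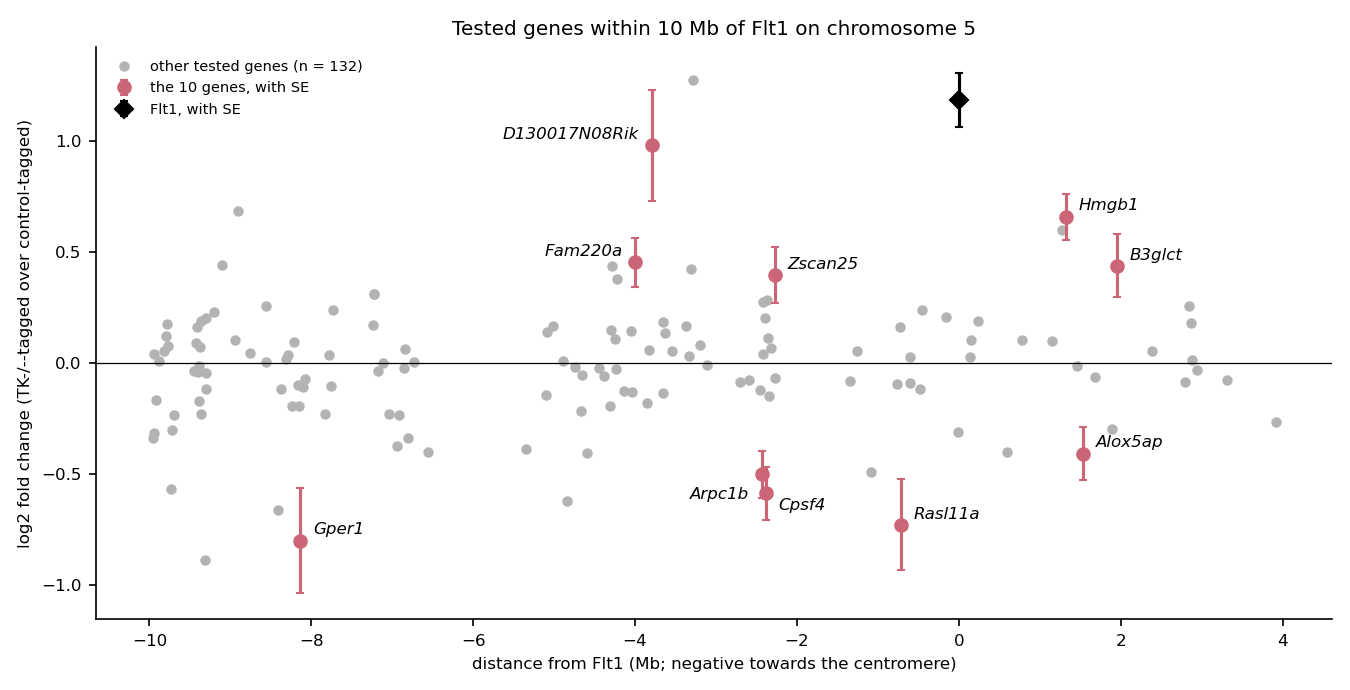
Log2 fold change (y axis) against the distance from *Flt1* in Mb (x axis, negative toward the centromere) for *Flt1*, the 10 genes (with SE) and the other 132 tested genes within 10 Mb (grey). The 10 genes lie between -0.80 and 0.98 and on both sides of 0, among neighbours with a median absolute log2 fold change of 0.13.

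The promoters of 9 of the 10 genes and of *Flt1* could be read from RefSeq on GRCm38.p6, as windows from 250 bases before to 50 bases after the transcription start. They were searched on both strands for 6 short motifs: CCAAT (the box of factor NF-Y), GGGCGG (bound by Sp1), TATAAA (the TATA box), TGACGTCA (the cyclic AMP response element), CGGAAG (bound by Ets factors) and CACGTG (the E-box of Myc, USF and clock factors). Shown are *Flt1*, with *Fam220a*, which alone among the 9 genes shares its cyclic AMP response element, and *Hmgb1* and *Arpc1b*. *Hmgb1* had the library profile closest to *Flt1*, a likeness that includes the group difference for which *Hmgb1* was chosen. *Arpc1b* had the highest control-tagged level per kb of exon. All sequences are written 5′ to 3′ along the gene's own strand, with matches to any of the 6 motifs in capitals.
Flt1, chr5:147725962-147726261, minus strand: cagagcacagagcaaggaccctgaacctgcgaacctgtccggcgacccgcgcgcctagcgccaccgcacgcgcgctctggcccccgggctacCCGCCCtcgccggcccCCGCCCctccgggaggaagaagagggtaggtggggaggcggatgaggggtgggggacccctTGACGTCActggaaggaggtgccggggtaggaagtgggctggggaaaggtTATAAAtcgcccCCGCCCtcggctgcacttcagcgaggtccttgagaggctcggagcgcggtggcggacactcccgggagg
Fam220a, chr5:143548470-143548769, plus strand: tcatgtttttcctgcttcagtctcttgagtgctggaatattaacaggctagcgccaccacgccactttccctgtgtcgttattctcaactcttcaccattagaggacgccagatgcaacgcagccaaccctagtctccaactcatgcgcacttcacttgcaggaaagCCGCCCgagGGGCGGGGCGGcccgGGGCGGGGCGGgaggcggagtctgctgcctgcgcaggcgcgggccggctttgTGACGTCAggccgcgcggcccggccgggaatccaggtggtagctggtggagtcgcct
Hmgb1, chr5:149053008-149053307, minus strand: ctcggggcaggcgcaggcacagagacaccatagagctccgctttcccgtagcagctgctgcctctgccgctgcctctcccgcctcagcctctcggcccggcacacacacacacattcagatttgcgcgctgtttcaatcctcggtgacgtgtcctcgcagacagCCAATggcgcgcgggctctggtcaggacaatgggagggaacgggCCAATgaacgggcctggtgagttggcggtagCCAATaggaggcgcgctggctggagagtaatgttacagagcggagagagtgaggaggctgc
Arpc1b, chr5:145114006-145114305, plus strand: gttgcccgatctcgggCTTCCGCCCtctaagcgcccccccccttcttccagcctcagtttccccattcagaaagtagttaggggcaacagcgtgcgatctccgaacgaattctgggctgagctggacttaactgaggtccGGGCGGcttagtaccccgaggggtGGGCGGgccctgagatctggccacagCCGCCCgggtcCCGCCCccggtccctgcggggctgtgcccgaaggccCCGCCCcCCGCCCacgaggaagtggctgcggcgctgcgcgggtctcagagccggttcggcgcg
The palindrome TGACGTCA occurred in 1.79% of all 32851 promoter windows. GGGCGG occurred in 35.7% of all windows, in that of *Flt1* and in 8 of the 12 windows of the 9 genes. These belong to 7 of the 9 genes, with 7 matches in *Arpc1b* and 5 in *Fam220a*. The *Hmgb1* window held 3 copies of CCAAT, a motif found in 37.4% of all windows. A second *Hmgb1* window, at chr5:149051567-149051866, held the E-box, found in 7.15%, and no CCAAT box. Only this second window held the GGGCGG and CGGAAG matches of *Hmgb1*. The TATA box (13.6% of all windows) was found in *Flt1* and, of the 9 genes, only in *Gper1*. CGGAAG (16.9% of all windows) was found in 5 of the 12 windows, those of *Arpc1b*, *D130017N08Rik* and *Zscan25* and the second of *Hmgb1*. No motif was present in the windows of all 9 genes, and the matches are letters in a window, not measured binding.

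Among genes that act on DNA and RNA, *Hmgb1* had the highest level per kb of exon. It encodes a chromatin protein that bends DNA and, once released from injured cells, acts as a danger signal to innate immune receptors. The gene (ENSMUSG00000066551) runs from 149046702 to 149184489 on the minus strand, 1.321 Mb from *Flt1*. Its normalized CPM was 49.9, 55.7, 42.2 and 55.4 in the control-tagged replicates and 77.7, 75.7, 81.9 and 85.7 in the TK-/--tagged replicates. The control-tagged libraries ranged from 42.2 to 55.7 and the TK-/--tagged libraries from 75.7 to 85.7, a separation that the choice of the gene would bring about. The means were 50.8 ± 6.30 and 80.3 ± 4.45 (SD, n = 4 each), a 1.58-fold higher level and a log2 fold change of 0.66 (SE 0.10). In bulk LV tissue, a change in RNA per cell and a change in the number of cells that hold the RNA cannot be told apart, here or for the genes below.

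*Cpsf4* (ENSMUSG00000029625, 145167213 to 145182041, plus strand) encodes a subunit of the complex that recognizes the polyadenylation signal of pre-mRNA. The control-tagged replicates had 20.7, 17.1, 19.4 and 18.3 normalized CPM and the TK-/--tagged replicates 12.6, 14.7, 12.1 and 11.0. All TK-/--tagged libraries lay below the lowest control-tagged library, replicate 2. Means of 18.9 ± 1.53 and 12.6 ± 1.53 (SD, n = 4 each) gave a log2 fold change of -0.59 (SE 0.12), so that the control-tagged level was 1.502 times as high.

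*Zscan25* (ENSMUSG00000070420, 145280500 to 145291278, plus strand) encodes a zinc finger protein with a SCAN domain, a protein-pairing module of a vertebrate family of likely transcription factors. Its normalized CPM was 6.44, 7.04, 7.53 and 7.20 in the control-tagged replicates and 9.10, 8.52, 9.40 and 10.12 in the TK-/--tagged replicates. The gap between the groups, from 7.53 to 8.52, was narrow, and the spread within each group was also narrow, with coefficients of variation (CV) of 6.50% and 7.17%. Its log2 fold change, 0.40 (SE 0.13), was the smallest of the 10 in absolute size.

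*D130017N08Rik* (ENSMUSG00000097287, 143758354 to 143768575, plus strand) is annotated as a long intergenic non-coding RNA, the only gene of the 10 that is not protein-coding. It had 30, 24, 25 and 16 reads in the control-tagged replicates and 42, 27, 47 and 53 in the TK-/--tagged replicates. As normalized CPM these were 2.25, 1.74, 1.68 and 1.28 against 3.41, 2.40, 3.71 and 4.22. The groups came closest at 2.25 in control-tagged replicate 1 and 2.40 in TK-/--tagged replicate 2. The log2 fold change of 0.98 (SE 0.25) was the largest of the 10 and also had the largest SE.

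Of the genes of the cytoskeleton and of signaling, *Arpc1b* had the highest level per kb of exon in the control-tagged libraries, as it had among all 10. It encodes a subunit of the Arp2/3 complex, which starts branched actin filaments, and is the form of this subunit that blood cells rely on. The gene (ENSMUSG00000029622) runs from 145114215 to 145130705 on the plus strand. Its normalized CPM was 132, 145, 161 and 130.1 in the control-tagged replicates and 106.5, 87.7, 96.3 and 110.2 in the TK-/--tagged replicates. Every TK-/--tagged library lay below every control-tagged library. The means of 142 ± 14.3 and 100.2 ± 10.2 (SD, n = 4 each) corresponded to a log2 fold change of -0.50 (SE 0.11).

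*Fam220a* (ENSMUSG00000083012, 143548708 to 143564531, plus strand) encodes a protein that binds STAT3, a transcription factor of cytokine signaling. The control-tagged replicates had 71.6, 72.7, 55.1 and 66.3 normalized CPM and the TK-/--tagged replicates 92.3, 84.0, 102.3 and 85.2. Control-tagged replicate 3 was low for this gene, as it was for *Hmgb1*, and TK-/--tagged replicate 3 was high. The means were 66.4 ± 8.06 and 91.0 ± 8.42 (SD, n = 4 each), with a log2 fold change of 0.45 (SE 0.11).

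*Rasl11a* (ENSMUSG00000029641, 146845071 to 146847726, plus strand), the nearest of the 10 to *Flt1*, encodes a small Ras-like GTPase of the nucleolus that has been linked to transcription by RNA polymerase I. It had 36, 51, 54 and 40 reads in the control-tagged and 26, 24, 21 and 26 in the TK-/--tagged replicates. As normalized CPM these were 2.69, 3.70, 3.63 and 3.20 against 2.11, 2.13, 1.66 and 2.07. TK-/--tagged replicate 3 stood below the other libraries of its group, which lay close together. The log2 fold change was -0.73 (SE 0.21).

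*Gper1* (ENSMUSG00000053647, 139423151 to 139427800, plus strand) encodes a G protein-coupled receptor for estrogen. Its reads numbered 51, 61, 92 and 65 in the control-tagged and 39, 22, 47 and 30 in the TK-/--tagged replicates. As normalized CPM these were 3.82, 4.43, 6.19 and 5.198 against 3.17, 1.95, 3.71 and 2.39. The groups nearly touched, at 3.82 and 3.71, and the CVs of 20.9% and 28.0% were among the widest of the 10. The log2 fold change was -0.80 (SE 0.24).

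In lipid mediator synthesis, *Alox5ap* (ENSMUSG00000060063, 149264767 to 149288153, plus strand) encodes FLAP, the membrane protein that hands arachidonic acid to 5-lipoxygenase at the start of leukotriene synthesis. The control-tagged replicates had 11.6, 13.8, 13.9 and 11.6 normalized CPM and the TK-/--tagged replicates 9.83, 9.32, 9.72 and 9.49. The latter were tightly grouped, with a CV of 2.39% against 10.3%. The means of 12.7 ± 1.305 and 9.59 ± 0.230 (SD, n = 4 each) gave a log2 fold change of -0.41 (SE 0.12).

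In glycosylation, *B3glct* (ENSMUSG00000051950, 149678230 to 149762599, plus strand) encodes the glucosyltransferase that extends O-linked fucose on thrombospondin repeats of secreted proteins. Its normalized CPM was 6.59, 7.84, 6.86 and 7.20 in the control-tagged replicates and 11.2, 9.06, 8.14 and 10.2 in the TK-/--tagged replicates. The groups came close at 7.84 and 8.14, and the TK-/--tagged libraries were more spread, with CVs of 7.58% and 13.9%. Means of 7.12 ± 0.540 and 9.65 ± 1.34 (SD, n = 4 each) gave a log2 fold change of 0.44 (SE 0.14).

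Levels can be compared between genes only per length. Per kb of annotated exon in control-tagged libraries, *Arpc1b* had 27.7 normalized CPM, *Fam220a* 14.9, *Hmgb1* 10.1, *Alox5ap* 8.96, *Cpsf4* 5.25, *Zscan25* 3.66, *Rasl11a* 2.75, *Gper1* 1.93, *B3glct* 1.48 and *D130017N08Rik* 0.339. By the mean over all 8 libraries, the 10 genes ran from the 10.3rd to the 86.2nd percentile of the level per kb of all tested genes. In the TK-/--tagged group, *Fam220a* (20.4) stood beside *Arpc1b* (19.6), a difference smaller than the SD of either gene, followed by *Hmgb1* (15.98) and *Alox5ap* (6.75). *Zscan25* (4.82) then stood above *Cpsf4* (3.50), and *B3glct* (2.01) above *Rasl11a* (1.66) and *Gper1* (1.11), with *D130017N08Rik* (0.670) last.

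The neighbours of the 10 genes showed smaller differences, as the choice of the 10 for their differences would bring about. Neighbours were the tested genes before and after each of the 10 by start position. This gave 19 distinct genes that are not among the 10. Their log2 fold changes ran from -0.30 to 0.60 with a median absolute value of 0.12, and 10 of 20 pairs had the same sign as the gene they flank. *Ptcd1*, 0.105 kb from *Cpsf4* on the opposite strand, had 25.3 ± 2.94 and 29.2 ± 3.37 normalized CPM (SD, n = 4 each) and a log2 fold change of 0.20 (SE 0.12), where *Cpsf4* had -0.59. *Atp5j2*, a subunit of ATP synthase on the other side of *Cpsf4*, had 549 ± 51.5 and 668 ± 79.8 (SD, n = 4 each) and a log2 fold change of 0.28 (SE 0.12). *Arpc1a*, the paralog that lies 5.45 kb from *Arpc1b* and can take its place in the Arp2/3 complex, had 78.4 ± 14.04 and 72.1 ± 1.22 (SD, n = 4 each), a log2 fold change of -0.12 (SE 0.12). The differences between neighbours were not tested.

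The other flanking genes followed the same pattern. Beside *Fam220a* lay *Rac1*, with a log2 fold change of -0.13 (SE 0.09), and *Cyth3*, with -0.18 (SE 0.15). Beside *Rasl11a* lay the ribosomal protein gene *Rpl21*, with 0.16 (SE 0.12), and *Gtf3a*, the gene of transcription factor IIIA, with 0.03 (SE 0.09). Beside *D130017N08Rik*, *Usp42* had a log2 fold change of 0.06 (SE 0.16) and *Eif2ak1*, the heme-regulated kinase of translation initiation, one of 0.19 (SE 0.09). *Hmgb1* and *Alox5ap* share *Uspl1* as a neighbour, which had -0.02 (SE 0.15), and on its other sides *Hmgb1* had *Gm15408*, at 0.60 (SE 0.39) and about 1 CPM, and *Alox5ap* had *Medag*, at -0.06 (SE 0.17). By start position, *Gper1* lay between *C130050O18Rik*, at -0.19 (SE 0.29), and *Zfand2a*, at -0.07 (SE 0.11). *Gper1* also lies inside *3110082I17Rik*, a tested gene on the opposite strand at -0.11 (SE 0.18). The order by start leaves that gene out of the 19. *Zscan25* lay between *Zfp655*, at 0.07 (SE 0.09), and a gene model that GENCODE lists as still to be tested by experiment, at -0.07 (SE 0.28). *B3glct* lay between *Hsph1*, a heat shock protein gene at -0.30 (SE 0.25), and *Fry*, at 0.06 (SE 0.15). None of the 19 had an unadjusted p under 0.01, which the choice of the genes they flank brings about. That choice took every tested gene under this value in the region around *Flt1* except *Gm15708*, which is not among the 19. The absence therefore carries no test of the neighbours. The spread of *Hsph1* in the control-tagged group was large (122 ± 61.7, SD, n = 4).

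Some reads of these genes could be placed elsewhere, and the handling of strand and of reads with several alignments is not given in the sources used here. *Arpc1b* shares 931 bases of exon, 18.2% of its exon length, with *Pdap1* on the opposite strand, so that without strand their reads there cannot be told apart. *Pdap1* had 68.7 ± 2.99 and 70.6 ± 3.50 normalized CPM (SD, n = 4 each), a log2 fold change of 0.04 (SE 0.08). *Hmgb1* overlaps *Uspl1* by 42 bases of exon. *Alox5ap* overlaps the antisense gene *Gm19719* by 189 bases, and *Gm19719* had 0 reads in all 8 libraries.

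Stretches of 100 bases, the length of a read, were compared between the transcripts of the 10 genes and those of genes with other symbols. *Hmgb1* shared 906 of 5008 such stretches (18.1%) with 52 other genes, 50 of them pseudogenes, *Arpc1b* 936 of 5511 (17.0%), mainly with *Pdap1*, and *Fam220a* 83 of 4558 (1.82%) with 4 processed pseudogenes. GENCODE M21 holds a second gene entry named *Fam220a*, which shares 2727 bases of exon (61.0% of the exon length of the first) on the same strand and has no row in the counts. Its transcripts were taken as *Fam220a* here. *Alox5ap* shared 8 of 1317, and the other 6 genes shared none. Of the 50 *Hmgb1* pseudogenes, 32 have a row in the counts, and 15 of these had reads. Together the 32 had 14, 22, 4 and 20 reads in the control-tagged and 10, 11, 11 and 18 in the TK-/--tagged replicates. *Hmgb1* itself had 628 to 767 and 853 to 1075 reads. Adding the reads of these pseudogenes, an alternative chosen after the data were seen, moved the log2 ratio of the group means of *Hmgb1* from 0.66 to 0.65.

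The pseudogenes of *Fam220a* stood apart between the groups. Their reads summed to 10, 14, 14 and 12 in the control-tagged and to 0, 2, 0 and 0 in the TK-/--tagged replicates. Most fell on *Fam220-ps* on chromosome X (75143688 to 75144470), with 9, 13, 11 and 7 reads against 0, 2, 0 and 0. *Gm16410*, also on chromosome X, had 1, 0, 2 and 3 reads and *Gm12579* on chromosome 4 had 0, 1, 1 and 2, with 0 in all TK-/--tagged libraries. These 3 genes share stretches with *Fam220a*, lie on other chromosomes and were singled out after their values were seen, and none passed the filter on low counts. *Fam220a* itself had 956, 1002, 819 and 829 reads against 1136, 946, 1295 and 1069. The pseudogenes were thus 1.05% to 1.71% of the *Fam220a* reads in the control-tagged libraries and 0% to 0.211% in the others. With them added, the log2 ratio of the group means of *Fam220a* went from 0.45 to 0.43, and what sets the reads of the pseudogenes apart was not tested.

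**Figure D3:**
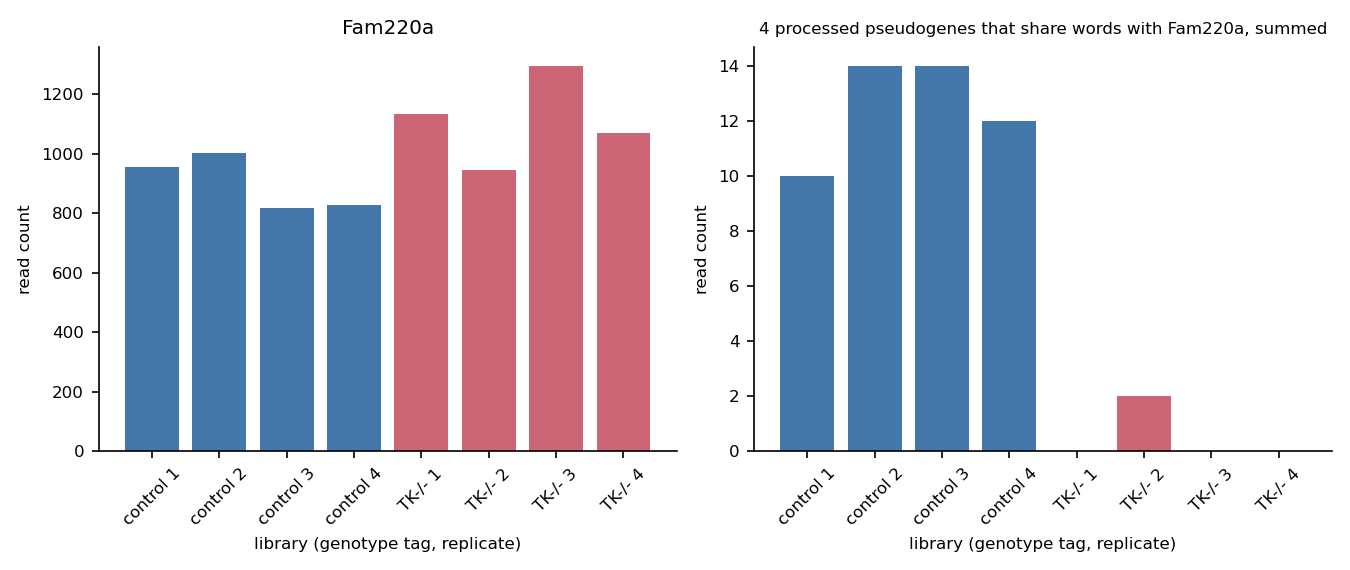
Read counts (y axes, from 0) of *Fam220a* (left) and of 4 processed pseudogenes that share 100-base stretches with it, summed (right), in each library (x axis). The pseudogenes had 10 to 14 reads in the control-tagged and 0 to 2 in the TK-/--tagged libraries, while *Fam220a* had 819 to 1002 and 946 to 1295.

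Genes that work with the 10 were listed in 9 groups, 120 of which passed the filter on low counts. The quasi-likelihood test gave none of the 120 an FDR under 0.1 (1 gene, 0.00738%, called over all genes), while 9 (7.5%) had an unadjusted p under 0.05, against 8.96% of all tested genes, and 4 (3.33%) one under 0.01, against 2.14%. All 9 were lower in the TK-/--tagged libraries. Over all tested genes the lean was also to the lower side, with 203 of the 290 genes at an unadjusted p under 0.01 in this test. The likelihood ratio test gave 2 of the 120 an FDR under 0.1, *Cxcr4* (0.0587) and *Hbegf* (0.0921), against 0.554% of all genes. DESeq2 gave it to *Cxcr4* (0.0642), against 0.513% of all genes. The study had already named *Cxcr4* from these libraries, and the lists were written with earlier results known. The calls among the partner genes are therefore no independent result. Over all 120 genes, 47 were higher and 73 lower, with a median log2 fold change of -0.05. Of the 120, 6 lie within 10 Mb of *Flt1* themselves. *D130017N08Rik*, a transcript of unknown role, had no list.

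For *Hmgb1*, 12 paralogs, receptors and partners were tested, of which 1 was higher and 11 lower, with a median log2 fold change of -0.11, the sign opposite to *Hmgb1* itself. The paralogs *Hmgb2* and *Hmgb3* had -0.15 (SE 0.15) and 0.03 (SE 0.11). *Cxcr4*, the chemokine receptor that responds to CXCL12 bound to HMGB1, had 17.2 ± 4.14 and 9.71 ± 2.24 normalized CPM (SD, n = 4 each), a log2 fold change of -0.83 (SE 0.20, FDR = 0.442 in the quasi-likelihood test). Its groups overlapped, at 12.1 and 12.4. *Myd88*, the adaptor of Toll-like receptors, had -0.22 (SE 0.12).

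For *Cpsf4*, 18 of 19 other factors of pre-mRNA cleavage and polyadenylation were tested, 12 higher and 6 lower, between -0.12 and 0.24, with none at an unadjusted p under 0.05. *Wdr33*, which reads the polyadenylation signal together with the *Cpsf4* product, had a log2 fold change of 0.18 (SE 0.11), and *Rbbp6* had 0.24 (SE 0.13). The paralog *Cpsf4l* had at most 1 read in any library.

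For *Arpc1b*, 15 of 16 genes of the Arp2/3 complex and its activators were tested, 1 higher and 14 lower, with a median log2 fold change of -0.12. The actin-related subunits *Actr2* and *Actr3* had -0.06 (SE 0.13) and -0.08 (SE 0.09), and the subunit *Arpc5* had -0.22 (SE 0.12). *Cttn*, an actin-binding activator of the complex, had 92.7 ± 6.29 and 81.0 ± 3.12 normalized CPM (SD, n = 4 each), a log2 fold change of -0.20 (SE 0.08). The subunit *Actr3b*, at 0.02 (SE 0.17), was the gene on the other side of 0, and *Arpc5l* had -0.00 (SE 0.09).

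For *Alox5ap*, 10 of 16 genes of leukotriene and other eicosanoid synthesis were tested, 5 higher and 5 lower. *Alox5*, the 5-lipoxygenase served by FLAP, had 17.5 ± 7.52 and 17.7 ± 6.69 normalized CPM (SD, n = 4 each), a log2 fold change of 0.02 (SE 0.31). *Lta4h*, which makes leukotriene B4, had -0.16 (SE 0.11), and *Ptgs1*, the constitutive cyclooxygenase, had -0.40 (SE 0.17, FDR = 0.522 in the quasi-likelihood test).

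For *Gper1*, 6 of 8 genes of estrogen reception and of its known downstream signaling were tested, 1 higher and 5 lower. *Esr1*, the gene of estrogen receptor alpha, had 3 to 11 reads per library and *Esr2* had 0, so that neither passed the filter. *Hbegf*, the growth factor that GPER1 signaling releases to act on the EGF receptor, had 35.1 ± 2.23 and 24.9 ± 4.34 normalized CPM (SD, n = 4 each), a log2 fold change of -0.49 (SE 0.13, FDR = 0.442 in the quasi-likelihood test). Its groups did not overlap. *Src*, a kinase in the same route, had -0.29 (SE 0.20).

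For *B3glct*, 18 genes were tested, the fucosyltransferase *Pofut2* and proteins with thrombospondin repeats, of which 5 were higher and 13 lower. *Pofut2*, which adds the fucose that the *B3glct* product extends, had 68.9 ± 5.49 and 70.3 ± 5.31 normalized CPM (SD, n = 4 each), a log2 fold change of 0.03 (SE 0.09). Among the proteins with these repeats, the matrix protease *Adamts4* had a log2 fold change of -0.85 (SE 0.25, FDR = 0.453) and *Adamtsl2*, a matrix regulator of TGF-beta, had -0.60 (SE 0.19, FDR = 0.464), both in the quasi-likelihood test.

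For *Rasl11a*, 12 of 15 small Ras-like GTPases and factors of RNA polymerase I were tested, 6 higher and 6 lower. Its paralog *Rasl11b* had a log2 fold change of 0.09 (SE 0.17), *Rasl12* of -0.32 (SE 0.13) and *Rerg*, an estrogen-regulated growth inhibitor, of -0.60 (SE 0.25). For *Fam220a*, 12 genes of STAT3 signaling were tested, 4 higher and 8 lower, with none at an unadjusted p under 0.05. *Stat3* had 212 ± 13.95 and 200.01 ± 11.1 normalized CPM (SD, n = 4 each), a log2 fold change of -0.09 (SE 0.09), and the receptor genes *Il6ra* and *Lifr* had -0.18 (SE 0.17) and 0.14 (SE 0.13). For *Zscan25*, 17 of 20 other SCAN zinc finger genes were tested, 12 higher and 5 lower, with none at an unadjusted p under 0.05. *Zscan20* and *Zkscan3* had log2 fold changes of 0.30 (SE 0.19) and 0.19 (SE 0.12), and *Zkscan14*, near *Zscan25*, had 0.11 (SE 0.16).

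**Figure D4:**
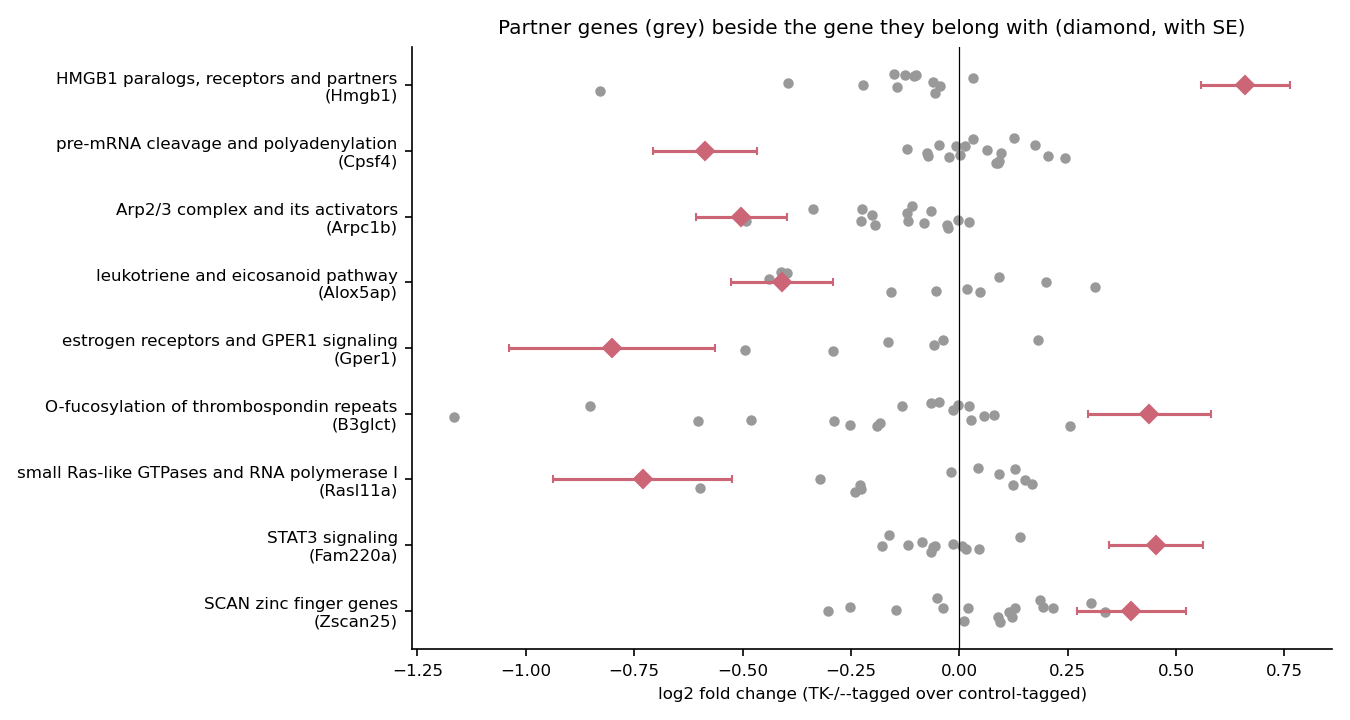
Log2 fold change (x axis) of the tested genes of 9 lists (grey points, rows) beside the gene each list was written for (diamond, with SE). All but *Alox5ap* (-0.41) lie outside the range of their lists, as genes chosen for their difference can.

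Lists of cell type markers were read beside these genes. *Alox5ap* and *Arpc1b* are abundant in leukocytes, and of 18 leukocyte markers 3 were higher and 15 lower, with a median log2 fold change of -0.25. Their summed normalized CPM was 670.7 to 849 in the control-tagged and 478 to 697 in the TK-/--tagged libraries, so that the groups overlapped, and no marker of any list below was at 0 in every library. *Csf1r* and *Itgam* were the leukocyte markers at an unadjusted p under 0.05, with log2 fold changes of -0.49 (SE 0.16) and -0.58 (SE 0.23). Of 8 endothelial markers, 1 was higher and 7 lower, with a median of -0.26 and sums of 1488 to 1841 against 1343 to 1493, so that the groups overlapped. *Pecam1*, *Cdh5*, *Tie1* and *Esam*, 4 of the 8, had an unadjusted p under 0.05, with log2 fold changes from -0.40 to -0.27, and 2 of these, *Cdh5* and *Tie1*, had one under 0.01. Cardiomyocyte markers (6 higher, 2 lower of 8) summed to 64504 to 101031 and 82283 to 102578. Fibroblast markers (8 lower of 8) summed to 1457 to 2411 and 750.2 to 1940. The quasi-likelihood test gave none of the 42 markers an FDR under 0.1, with 7 (16.7%) at an unadjusted p under 0.05 against 8.96% of all genes, and the part of cell composition in the differences of *Alox5ap* and *Arpc1b* was not tested.

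Within the groups, the 10 genes varied little together. After the group means were removed, the 45 pairs had a median Pearson r of 0.00 over the 8 libraries, and 23 pairs were positive. The pairs ranged from -0.77, for *Cpsf4* and *Zscan25*, to 0.74, for *Arpc1b* and *Zscan25*. *Arpc1b* and *Alox5ap* had an r of 0.70 and *Hmgb1* and *Fam220a* of 0.66. The 20 pairs of genes with differences in the same direction had a median r of 0.14 and the 25 opposite pairs one of -0.17. All points share library depth and normalization. The CV of the 10 genes had a median of 11.2% in the control-tagged and of 10.7% in the TK-/--tagged libraries.

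Across all 8 libraries, group difference included, the tested gene whose log2 normalized CPM was most like that of *Hmgb1* was *Flt1* itself, with a Pearson r of 0.98. The next was *3110070M22Rik* on chromosome 13, also at 0.98. *Arpc1b* and *Alox5ap* had the same closest gene, *Slc9a5*, a sodium/proton exchanger gene on chromosome 8, with r of 0.99 and 0.97. The other closest genes were *Unc119* for *Cpsf4* (0.95), *3110001I22Rik* for *Fam220a* (0.98), *Pms1* for *D130017N08Rik* (0.96), *Galnt10* for *Rasl11a* (0.98), *Tspan11* for *Gper1* (0.97), *Slc35g2* for *Zscan25* (0.96) and *Trappc6a* for *B3glct* (0.97). With 13542 genes searched over 8 libraries, such values describe the profile and carry no test.

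Genes at an unadjusted p under 0.01 were more frequent near *Flt1* than farther away, which the choice of the 10 genes rests on within 10 Mb. They were 4 of 25 tested genes within 2 Mb (16%), all among the 10, then 6 of 53 from 2 to 5 Mb (11.3%) and 1 of 64 from 5 to 10 Mb (1.56%). Beyond 10 Mb, a part of the chromosome that the choice did not use, they were 14 of 735 (1.9%), 4 higher and 10 lower, and on other chromosomes 264 of 12635 (2.09%). The quasi-likelihood test gave none of the 735 an FDR under 0.1, where 64 reached an unadjusted p under 0.05. In the bin from 10 to 20 Mb they were 3 of 92 (3.26%), with *Col26a1*, a collagen gene at 10.7 Mb, first among them. It had 1.35 ± 0.363 and 0.242 ± 0.213 normalized CPM (SD, n = 4 each), a log2 fold change of -2.41 (SE 0.48, FDR = 0.442 in the quasi-likelihood test). These levels are near the floor, as a CPM of 1 stands for 11 to 16 reads. *Col26a1* passed the filter on low counts only through the control-tagged libraries, where it was higher. The 132 other tested genes within 10 Mb were evenly divided, 66 higher and 66 lower, with log2 fold changes from -0.89 to 1.28. Groups did not overlap for 6 of these 132 genes, against 4.98% of all tested genes. The count of 11 genes within 10 Mb fell to 7 without control-tagged replicate 3 or without TK-/--tagged replicate 2, 3 or 4.

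**Figure D5:**
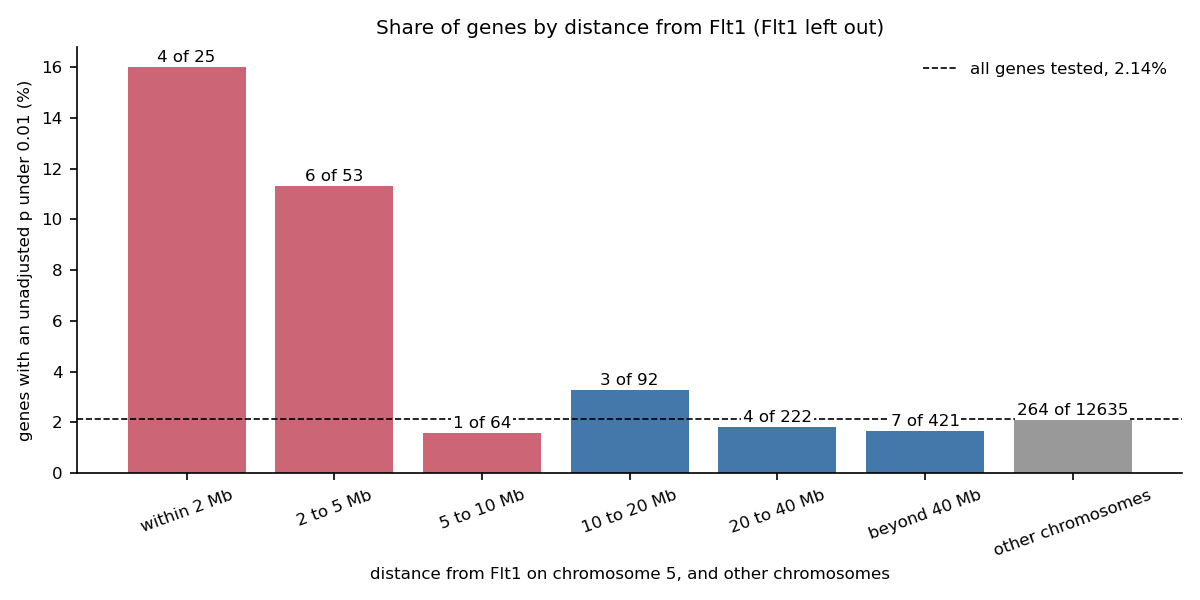
Share of tested genes with an unadjusted p under 0.01 (y axis, in percent, from 0) by distance from *Flt1* on chromosome 5 and for other chromosomes (x axis), with counts on the bars and the share of all tested genes (2.14%) as a dashed line. The share was 16% within 2 Mb and 11.3% from 2 to 5 Mb, and between 1.56% and 3.26% in all other bins. The first 3 bars hold the genes the choice was made from.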

How the data were processed

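RNA of the LV was sequenced in 8 libraries, 4 per genotype tag, as pairs of reads of 100 bases. Read ends below a Phred score of 30 were removed by the authors (Trim Galore 0.4.4), and STAR 2.5.4b placed the reads on GRCm38 with up to 10 alignments per read. The authors deposited raw featureCounts counts per GENCODE M16 gene, without normalization. The labels describe depletion of ribosomal RNA and the study's methods a poly-A kit. The genes and the lists were chosen with earlier results of these data known.

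Counts were normalized by TMM and tested with edgeR 4.0.16 (R 4.3.3) by the quasi-likelihood F test without covariates over 13542 genes, with Benjamini-Hochberg adjustment. Calls required an FDR under 0.1 and a fold change of 1.5 or more in either direction. The code was tested on simulated counts. Named are the 10 genes, *Flt1*, the tested neighbours by start position and direct paralogs. Also named are the 2 genes of lowest p of each list, the most similar profiles and the gene just outside the p of 0.01. Named after their values were seen were *Gm15708*, *Fam220-ps*, *Gm16410*, *Gm12579*, *Col26a1*, *Actr2*, *Actr3*, *Actr3b*, *Arpc5l*, *3110082I17Rik*, *Csf1r*, *Itgam*, *Pecam1*, *Cdh5*, *Tie1* and *Esam*. Of each 2 most similar profiles the first is given, and for *Hmgb1* both. For *Zscan25*, the neighbour at -0.07 is given without its clone-based name.

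Genes were placed with GENCODE M21, and 849 identifiers of the table (29 tested) had no match there. Distances run between the nearest edges of genes. Totals lay between 11449137 and 16239670 counts, so that genes near a CPM of 1 rest on 11 to 16 reads. Pairs of libraries of one group differed by 6.77 to 49.9 in chi-square per degree of freedom, where sampling noise alone gives about 1, so that each library was 1 replicate. The labels do not say more on their origin than the genotype, and the study's methods describe separate mice. Other settings tried were DESeq2 1.42.0, the likelihood ratio test, RLE size factors, total counts, no filter, filterByExpr, each library left out and the replicate number as a block. Columns of other samples numbered 0.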

Additional observations from a re-analysis of the deposited data

Results flagged for a closer look

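In 4 against 4 libraries, the 11 genes (the 10 genes and *Flt1*) gave 22 groups in which the distance of an extreme library from the rest was examined. In 1 of them a library stood apart by Dixon's criterion: *Rasl11a* in TK-/--tagged replicate 3, at 1.66 normalized CPM where the next library had 2.07, a gap of 0.877 of the range of the group. Chance alone gives about 1 in 20 such groups. The library held 21 reads of *Rasl11a*.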

How the results depend on the processing

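Under 15 other settings (tests, scalings, filters, the block and libraries left out), all 150 values of the 10 genes kept their sign and none moved by more than the spread between replicates. The median absolute log2 fold change of the 10 genes was 0.51 to 0.58 with a library left out. The count of genes called (1) was 53 by the likelihood ratio test, 32 by DESeq2, 23 without a filter, and 1 to 3 with a library left out, 2 without control-tagged replicate 1 and 3 without control-tagged replicate 2 or 4. Genes at an unadjusted p under 0.01 within 10 Mb (11) numbered 7 to 11 with a library left out. Those beyond 10 Mb (14) numbered 23 without a filter and 7 to 17 with a library left out, the lowest without TK-/--tagged replicate 2. Of the partner genes, 2 had an FDR under 0.1 by the likelihood ratio test, 1 by DESeq2 and 1 without a filter. Those at an unadjusted p under 0.01 (4) numbered 2 with total counts and 2 to 6 with a library left out, 2 without control-tagged replicate 2 or TK-/--tagged replicate 2 or 3. The cause was not tested. Libraries with the same number correlated at -0.03, 0.03, 0.34 and -0.06 in their deviations from the group means. Of the 4, 1 matched its own number best, replicate 3. The labels give no pairing, and 4 such values cannot exclude one. With the replicate block 1 gene was called, 8 genes within 10 Mb and 15 beyond had an unadjusted p under 0.01, and the median of the 10 genes was 0.55.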
